A study of Mus musculus with 87 samples.

Results

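Rhox5, Rhox6 and Rhox9 belong to the reproductive homeobox (Rhox) cluster of the mouse X chromosome. They were taken by name from the 25277 gene symbols shared by the 10 count tables of a study of semi-cloned mice, in which a haploid embryonic stem cell takes the place of a sperm. These 3 genes are 3 of the 32 Rhox genes in the tables, and the 29 others are described where they were measured. RNA was sequenced in 87 libraries that fall into 31 groups of genotype, stage and tissue.

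The haploid cells were androgenetic embryonic stem cells, which hold a single genome of sperm origin. They carried a Dnmt TKO genotype (n = 3), a Dnmt STOP genotype (n = 2) or were Dnmt WT (n = 3). Preimplantation embryos were labelled pIR or pWT and were taken at the 2C stage (n = 4 of each), as morulae (pIR n = 4, pWT n = 3) and as blastocysts (n = 4 of each). Fetal tissues of embryonic day E18.5 came in 2 labelled batches: batch 1 compared pTKO with pWT (n = 2 of each per tissue) in brain, heart, lung, liver and kidney, and batch 2 compared pIR with pWT (n = 4 of each) in liver and heart. Newborn tissues of postnatal day 1 (P1) were lung, liver, kidney and heart from pIR (n = 2) and pWT (n = 3). The labels give one haploid cell line name for all 3 Dnmt genotypes and do not say how many clones, cultures or animals stand behind the libraries. The labels do not spell out STOP, pIR or the prefix p, and none says how each embryo or animal was made.

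Rhox genes encode homeodomain proteins, transcription factors that bind DNA through a conserved fold, and they are known mainly from testis, ovary, placenta and germ cells. In most somatic cells they are silent, and methylation of cytosines in CG pairs near their promoters is a known part of that silencing. Dnmt3a and Dnmt3b place such methylation and Dnmt1 copies it when DNA is replicated. Rhox5, also called Pem, is made in Sertoli cells of the testis, in trophoblast and in mouse embryonic stem cells, and Rhox6 and Rhox9 are known from placenta and from germ cells.

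The 32 Rhox genes lie on chromosome X between positions 37213804 and 38129967 of the mm10 build, over 916 kb (GENCODE annotation). Rhox5 lies at 37804842 to 37808876 on the plus strand, with 754 bases of exon, and Rhox6 follows 18 kb further on, at 37826910 to 37829857 on the plus strand, with 1010 bases of exon. Rhox9 lies 69 kb beyond Rhox6, at 37899097 to 37901770 on the minus strand, with 2488 bases of exon. Rhox6 and Rhox9 are close relatives. Their coding sequences are 681 bases long each and match at 617 bases (90.6%), whereas the 639 coding bases of Rhox5 match Rhox6 at 47.8% and Rhox9 at 49.5% of aligned positions. The last 139 coding bases of both are shown because they hold 20 of the 64 differences, with those 20 positions in capitals and 5′ to 3′ on the coding strand, from the GENCODE transcripts of the mm10 build:
Rhox6: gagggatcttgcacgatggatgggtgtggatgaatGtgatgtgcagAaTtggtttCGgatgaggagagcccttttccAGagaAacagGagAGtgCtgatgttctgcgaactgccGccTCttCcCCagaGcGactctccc
Rhox9: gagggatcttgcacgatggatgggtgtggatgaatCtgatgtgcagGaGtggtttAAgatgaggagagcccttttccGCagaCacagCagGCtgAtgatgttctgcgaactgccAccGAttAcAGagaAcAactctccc
Of all stretches of 150 bases (the length of 1 read) in the transcripts, 1.4% of those of Rhox6 and 0.5% of those of Rhox9 occur in the other gene, and 0 of 605 of Rhox5 occur in any other Rhox gene. The sources used here do not give how the authors treated reads that match several genes, so a small part of the Rhox6 and Rhox9 counts could belong to either gene.

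The promoter of Rhox5 and those of the 3 other Rhox genes that changed in haploid cells are shown because CG pairs are where Dnmt enzymes act. Each is the 250 bases before the RefSeq start site (GRCm38.p6), 5′ to 3′ on the gene's own strand, with every CG in capitals:
Rhox5, chrX:37754358-37754607, plus strand: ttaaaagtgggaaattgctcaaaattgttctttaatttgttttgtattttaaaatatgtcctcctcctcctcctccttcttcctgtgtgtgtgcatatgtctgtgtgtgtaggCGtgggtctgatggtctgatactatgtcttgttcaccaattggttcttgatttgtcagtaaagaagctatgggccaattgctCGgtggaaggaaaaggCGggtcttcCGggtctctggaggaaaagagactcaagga
Rhox1, chrX:37222259-37222508, minus strand: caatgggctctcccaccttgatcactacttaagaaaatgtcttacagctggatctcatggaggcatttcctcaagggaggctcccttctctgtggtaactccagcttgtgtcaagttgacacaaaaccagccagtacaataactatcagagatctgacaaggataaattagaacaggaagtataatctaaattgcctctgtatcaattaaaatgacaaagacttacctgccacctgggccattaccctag
Rhox2g, chrX:37643471-37643720, minus strand: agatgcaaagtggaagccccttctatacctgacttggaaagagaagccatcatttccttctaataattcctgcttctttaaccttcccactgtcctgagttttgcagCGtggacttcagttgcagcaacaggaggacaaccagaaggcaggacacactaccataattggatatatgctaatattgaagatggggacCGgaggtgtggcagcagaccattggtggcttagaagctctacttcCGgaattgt
Rhox4g, chrX:37651328-37651577, minus strand: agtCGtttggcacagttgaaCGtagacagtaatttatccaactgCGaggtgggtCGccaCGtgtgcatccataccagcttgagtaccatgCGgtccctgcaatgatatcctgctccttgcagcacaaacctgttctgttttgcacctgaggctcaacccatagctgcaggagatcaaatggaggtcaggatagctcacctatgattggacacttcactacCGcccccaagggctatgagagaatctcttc
The Rhox5 window ends at 37754607, far upstream of the start of the gene in the GENCODE annotation, at 37804842. It thus lies before the RefSeq start and not before the GENCODE one. The bases just before the GENCODE start were not examined, so the CG count of Rhox5 describes the RefSeq start alone. The windows hold 4 CG pairs (Rhox5), 0 (Rhox1), 3 (Rhox2g) and 7 (Rhox4g), as read on either strand. Among 32851 promoter windows of the same length the median was 6 CG pairs (quartiles 2 and 16), and 62.2%, 100%, 71.0% and 46.3% of them hold at least as many as Rhox5, Rhox1, Rhox2g and Rhox4g. The 28 Rhox windows in the RefSeq table ranged from 0 to 10 CG pairs, with a median of 4.5. No methylation was measured in these files.

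Levels are given as CPM, the counts of a gene per mega (M) of assigned reads, from library totals of 16.8 to 24.5 M in haploid cells, 6.1 to 24 M in embryos and 10.7 to 37.4 M in tissues. Among embryos, 2C pIR libraries had 6.1 to 7.5 M and 2C pWT libraries 10.9 to 24 M. In haploid cells the Dnmt genes were low in TKO, and in STOP Dnmt3a was slightly below WT: Dnmt1 averaged 71.1 CPM in TKO, 587 CPM in STOP and 422 CPM in WT, Dnmt3a 11.3, 55.7 and 68.8 CPM, and Dnmt3b 24.1, 125 and 136 CPM in the same order. X-linked genes as a whole (584 tested) had a median log2 fold change of -0.38 in TKO and -0.52 in STOP against WT, where all other genes had 0.02 in both. By library, that X-linked shift was -0.77, -0.49 and -0.01 in TKO 1, 2 and 3 and -0.56 and -0.44 in STOP 1 and 2, so TKO 3 stood apart.

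Rhox5 stood far higher in both mutant haploid cell types than in WT. Its level was 258, 342 and 398 CPM in TKO and 276 and 315 CPM in STOP, against 16.0, 24.0 and 25.3 CPM in WT. Every mutant library was about an order of magnitude or more above the highest WT library, and neither mutant group overlapped WT. TKO averaged 333 ± 70.7 CPM (SD, n = 3), STOP 296 ± 27.1 CPM (n = 2) and WT 21.8 ± 5.05 CPM (n = 3). Rhox5 rose 14.9-fold in TKO, with a log2 fold change of 3.90 ± 0.24 (SE) and an adjusted p of 0.000101 by edgeR's quasi-likelihood test. By p it was the 8th and by size the 35th of 14959 genes tested. In STOP Rhox5 rose 12.6-fold (log2 fold change 3.66 ± 0.25, edgeR adjusted p = 0.000467), where it ranked 4th by p and 84th by size. Both calls held with each library left out in turn, at log2 fold changes of 3.69 to 4.07 in TKO and 3.48 to 3.79 in STOP. Of all genes tested, 9.83% were called higher in TKO and 13.8% in STOP, and 14.6% and 23.1% were called in either direction. The TKO and STOP comparisons share the same 3 WT libraries.

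Rhox6 and Rhox9 stood higher in the mutants too, at a much lower level and without passing the test. Rhox6 had 2.88, 5.32 and 9.65 CPM in TKO and 4.19 and 5.25 CPM in STOP, against 1.73, 2.36 and 2.56 CPM in WT. Rhox9 had 1.87, 3.94 and 6.46 CPM in TKO and 4.40 and 5.05 CPM in STOP, against 1.13, 1.6 and 1.82 CPM in WT. All mutant libraries of both genes were above all WT libraries, by a narrow margin for the lowest TKO library. The share of all genes with such an order was not counted. In TKO the log2 fold change was 1.40 ± 0.44 for Rhox6 (edgeR adjusted p = 0.0627) and 1.40 ± 0.45 for Rhox9 (edgeR adjusted p = 0.0686). In STOP it was 0.98 ± 0.48 for Rhox6 (edgeR adjusted p = 0.156) and 1.53 ± 0.49 for Rhox9 (edgeR adjusted p = 0.0524). Apart from that of Rhox6 in STOP, these values sit near the threshold. With DESeq2, Rhox6 and Rhox9 passed in TKO (adjusted p = 0.0163 and 0.0232), and in STOP only Rhox9 passed (0.0201). TKO 1 is the lowest mutant library of both genes, and without it both passed in TKO (edgeR adjusted p = 0.0132 for Rhox6 and 0.0129 for Rhox9). TKO 3 is the highest, and without it the log2 fold changes were 0.80 for Rhox6 (edgeR adjusted p = 0.0494) and 0.84 for Rhox9 (0.0653). When any other library was left out neither passed, with edgeR adjusted p values up to 0.196 for Rhox6 and 0.209 for Rhox9.

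**Figure D1:**
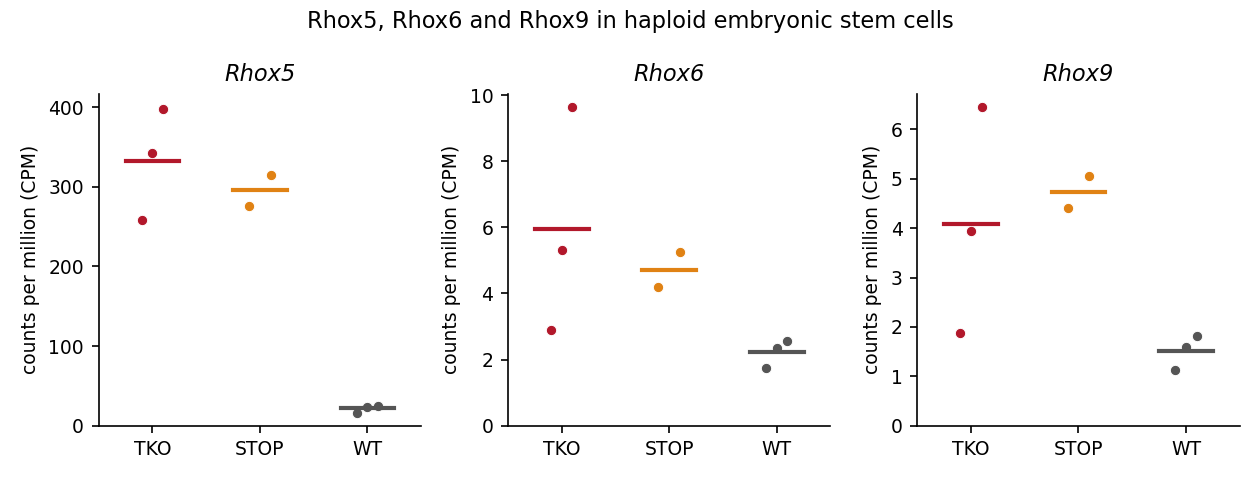
CPM of Rhox5, Rhox6 and Rhox9 in TKO, STOP and WT haploid embryonic stem cells, with 1 panel per gene and its own axis from 0; bars are group means and dots are libraries. The TKO and STOP libraries of Rhox5 lie between 258 and 398 CPM, and the WT libraries between 16.0 and 25.3 CPM.

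TKO and STOP did not differ detectably from each other in any of the 3 genes. The log2 difference of STOP over TKO was -0.24 ± 0.23 for Rhox5, -0.42 ± 0.48 for Rhox6 and 0.12 ± 0.48 for Rhox9, with edgeR adjusted p values of 0.902, 0.902 and 0.963. Only 0.0401% of all genes were called in that comparison, and the errors leave room for a modest difference in either direction. Per kb of exon, which allows genes to be compared, Rhox5 averaged 441 CPM in TKO, 392 in STOP and 28.9 in WT. On the same scale Rhox6 averaged 5.89, 4.67 and 2.19 CPM per kb and Rhox9 1.64, 1.90 and 0.61 CPM per kb. Rhox5 thus held most of the reads of the cluster in every genotype: 92.4% to 96.9% of all Rhox reads in TKO libraries, 93.6% to 94.2% in STOP and 77.6% to 78% in WT.

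Other genes of the cluster rose as well. Of the 29 other Rhox genes, 6 had enough reads to be tested in haploid cells, and 3 of these were called higher in TKO and the same 3 in STOP, with none lower. The share of all genes called higher was 9.83% in TKO and 13.8% in STOP. Rhox1, which lies at the opposite end of the cluster from Rhox13, had 1.82, 4.75 and 6.87 CPM in TKO and 3.60 and 6.01 CPM in STOP, against 0.954, 1.27 and 1.48 CPM in WT. Its log2 fold change was 1.83 ± 0.50 in TKO (edgeR adjusted p = 0.0408) and 1.85 ± 0.54 in STOP (edgeR adjusted p = 0.039). Rhox2g and Rhox4g, members of repeated gene blocks within the cluster, were nearly absent in WT. Rhox2g had 0.152, 0.491 and 0.570 CPM in TKO and 0.371 and 0.555 CPM in STOP, against 0 to 0.0596 CPM in WT, from 2 reads in all. Rhox4g had 0.606, 0.654 and 0.665 CPM in TKO and 0.530 and 0.555 CPM in STOP, against 0 to 0.189 CPM in WT, from 5 reads in all.

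None of these 3 genes overlapped WT in either mutant, and how many of all genes show the same was not counted. The log2 fold change of Rhox2g was 3.32 ± 0.88 in TKO and 3.44 ± 0.94 in STOP (edgeR adjusted p = 0.0386 and 0.0331), and that of Rhox4g 2.79 ± 0.70 and 2.49 ± 0.77 (edgeR adjusted p = 0.0314 and 0.046). With so few WT reads these fitted sizes depend on the prior count and are no bounds. Few of these calls held with 1 library left out. In TKO Rhox1 was called in 2 of 6 such fits (lost without TKO 2 or any WT library, edgeR adjusted p = 0.107 to 0.148), Rhox2g in 2 of 5 (lost without any WT library, 0.103 to 0.121, and not tested without TKO 2) and Rhox4g in 3 of 6 (lost without TKO 2, WT 1 or WT 3, 0.0872 to 0.118). In STOP Rhox1 and Rhox2g were called in 0 of 5 (edgeR adjusted p = 0.0817 to 0.251), and Rhox4g in 1 of 5, without WT 2 (0.0415). Of the stretches of 150 bases in Rhox4g, 55.4% occur in another Rhox gene and of those in Rhox2g 1.8%, so part of the Rhox4g reads cannot be told apart from those of its copies. Rhox2a, Rhox2h and Rhox13 had log2 fold changes of 2.49, 2.58 and 1.48 in TKO and of 1.79, 2.88 and 1.86 in STOP and did not pass. The median over the 6 tested genes was 2.54 in TKO and 2.18 in STOP, against 0.01 over all genes tested in both.

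**Figure D2:**
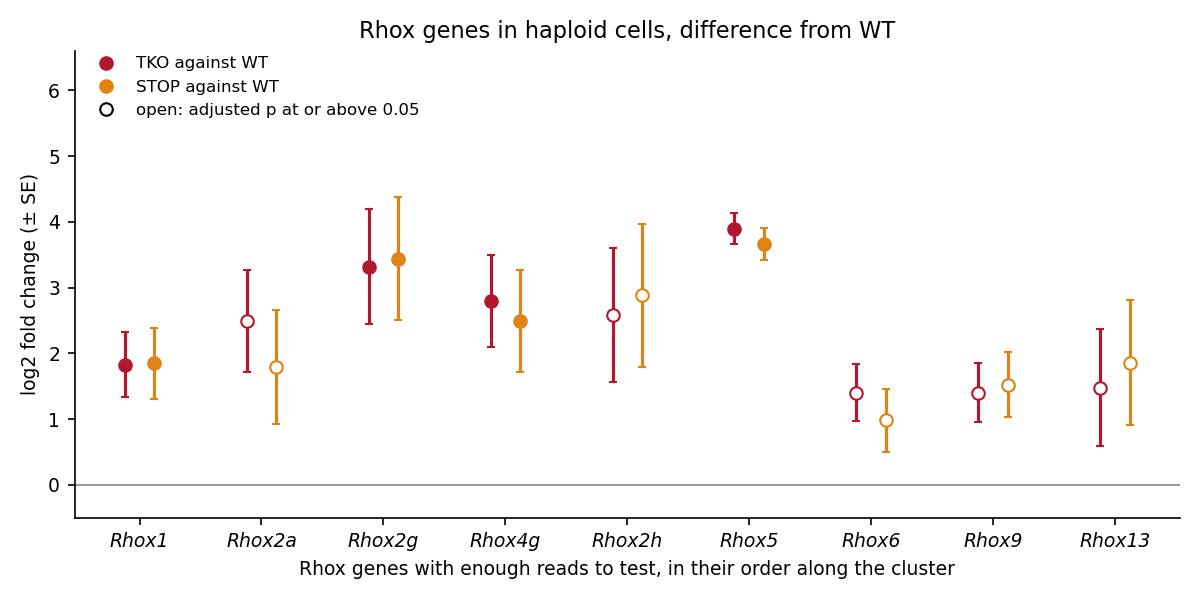
Fitted log2 fold changes of the Rhox genes tested in haploid cells, for TKO over WT and STOP over WT, in their order along chromosome X; bars are standard errors, filled symbols have an edgeR adjusted p below 0.05 and open symbols do not. All 9 genes lie above 0 in both comparisons, and Rhox5 is highest at 3.90 in TKO and 3.66 in STOP.

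Among genes beside the cluster none was called higher by edgeR. Of 24 genes within 500 kb of the cluster on either side, 19 were tested. In TKO 0 were called higher and 1 lower, the membrane protein gene Tmem255a (log2 fold change -0.93 ± 0.24, edgeR adjusted p = 0.0369), with a median of -0.43. In STOP 0 were called higher and 3 lower (Nkrf, Zbtb33 and Mcts1, log2 fold changes -1.66, -0.77 and -1.17), with a median of -0.56. Of all genes tested, 4.72% were called lower in TKO and 9.37% in STOP. DESeq2 called 1 higher and 4 lower in TKO and 1 higher and 6 lower in STOP. The neighbour with the largest positive value was Gm9, a predicted gene named here after its values were seen. Its log2 fold change was 3.13 ± 0.99 in TKO (edgeR adjusted p = 0.0643), as near the threshold as Rhox6 and Rhox9 in TKO. In STOP it was 2.60 ± 1.05 (edgeR adjusted p = 0.0978). Both medians lie near the shift of X-linked genes as a whole given above. Of 22 listed germ cell genes elsewhere on the X chromosome, 19 were tested. In TKO 10 of these were called higher and 0 lower, and likewise 10 and 0 in STOP, with medians of 1.17 and 1.44. The share of all genes called higher was 9.83% in TKO and 13.8% in STOP. The members with the smallest p were genes of the Xlr family, known from lymphocytes and meiotic germ cells, with Xlr3b at 1.38 ± 0.17 and Xlr4c at 2.50 ± 0.39 in TKO and at 1.44 ± 0.18 and 2.57 ± 0.42 in STOP. Whether reads were shared between Xlr genes was not examined. With 1 library left out, 3 to 13 of the listed genes were called higher in TKO and 2 to 8 in STOP.

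Away from the X chromosome, 22 germ cell genes whose promoters are known to be methylated were tested. In TKO 9 were called higher and 1 lower, the synaptonemal complex gene Sycp3 (log2 fold change -0.91), and in STOP 10 were called higher and 0 lower, with medians of 0.88 and 0.97. Over all genes tested, 9.83% were called higher and 4.72% lower in TKO, and 13.8% and 9.37% in STOP. Leaving out 1 library gave 4 to 9 called higher and 0 to 9 lower in TKO, and 4 to 7 higher and 0 lower in STOP. The 9 lower calls came without TKO 3, where the median was 0.12. This list and that of X-linked germ cell genes were chosen with earlier results of these data known. Among 14 genes of the silencing machinery, 0 were called higher and 4 lower in TKO. These were Dnmt1 (-2.62), Dnmt3a (-2.65), Dnmt3b (-2.54) and Pcgf6 (-0.38), a Polycomb factor that keeps germ cell genes off in stem cells. Leaving out 1 library gave 3 to 7 called lower, the 7 without TKO 3, where 1 was called higher. In STOP 1 was called higher, Dnmt1 (0.38), and 4 lower, which were the repressor cofactor Trim28 (-0.73), the Myc partner Max (-0.43), Dnmt3a (-0.41) and Pcgf6 (-0.30), and with any 1 library left out none of the 5 was called.

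The summed markers of trophoblast also differed between the genotypes. Trophoblast markers, summed over 11 genes, were at 130, 155 and 113 CPM in TKO and 134 and 157 CPM in STOP, against 73.7, 74.1 and 76.8 CPM in WT. Of the 7 that could be tested, 1 rose and 2 fell in each mutant, where 14.6% of all genes were called in TKO and 23.1% in STOP. Prl3d1, a hormone gene of trophoblast giant cells, was at 0 in all 8 libraries, as was Plac1, a placental gene, in STOP. Markers of embryonic stem cells, summed over 7 genes, were at 3180, 3530 and 4320 CPM in TKO and 3400 and 3410 CPM in STOP, against 4210, 4520 and 4360 CPM in WT. Primitive endoderm markers were at 51 to 77.6 CPM in TKO and 58.1 and 59.8 CPM in STOP, against 54.9 to 57.9 CPM in WT. Germ cell markers were at 9.5 to 13.7, 10.6 and 13.4, and 11.8 to 12.3 CPM in the same order. For 2-cell markers the values were 0.285 to 2.09, 2.54 and 5.6, and 2.68 to 5.19 CPM. The part of these cell types in the Rhox values was not tested. In bulk libraries more expressing cells and more RNA per cell cannot be told apart.

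In embryos Rhox5 was detected at every stage, with its highest group means in morulae (21.1 CPM in pIR and 10.6 CPM in pWT). At the 2C stage it had 3.11, 3.58, 2.44 and 0 CPM in pIR, against 1.01, 0, 0 and 0 CPM in pWT. In morulae it had 8.07, 14.7, 21.8 and 40.0 CPM in pIR, against 0.997, 30.7 and 0 CPM in pWT. In blastocysts it had 12.8, 3.88, 3.31 and 20.3 CPM in pIR, against 0.537, 10.6, 0 and 2.90 CPM in pWT. All 8 pIR morulae and blastocysts had Rhox5 reads, while 1 of 3 pWT morulae and 1 of 4 pWT blastocysts had none. The groups overlapped at each of the 3 stages. At 2C Rhox5, like Rhox6 and Rhox9, had too few reads to be tested. The log2 fold change of pIR over pWT was 1.17 ± 1.25 in morulae (edgeR adjusted p = 0.765) and 1.68 ± 0.99 in blastocysts (edgeR adjusted p = 0.285). Each value depends on the highest pWT library: without the pWT morula at 30.7 CPM it was 5.48 (edgeR adjusted p = 0.264), and without the pWT blastocyst at 10.6 CPM it was 3.32 (edgeR adjusted p = 0.0855). Over all fits with 1 library left out the values ranged from 0.57 to 5.48 in morulae and from 1.09 to 3.32 in blastocysts, and none passed. The shares of all genes called in these comparisons were 0.136% and 10.6%. The pIR effect in blastocysts did not differ detectably from that in morulae, with a log2 difference of 0.54 ± 2.33 (edgeR adjusted p = 1).

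Rhox6 and Rhox9 appeared in few embryos. Rhox6 had reads in 7 and Rhox9 in 12 of the 23 embryo libraries, against 17 for Rhox5. At 2C Rhox6 had 4.86, 0.795, 0 and 0 CPM and Rhox9 2.43, 6.76, 0 and 0 CPM in pIR, while all 4 pWT libraries were at 0, which allows up to 0.0418 CPM over the group (3 counts). The same 2 pIR libraries carried both genes. In morulae Rhox9 was low but present in every library, with 2.00, 1.14, 2.09 and 0.520 CPM in pIR against 1.31, 0.130 and 0.321 CPM in pWT (log2 fold change 1.42 ± 1.41, edgeR adjusted p = 0.744). Rhox6 had reads in 1 morula library of each genotype, at 0.978 CPM in pIR and 0.873 CPM in pWT.

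One pIR blastocyst stood apart. It had 27.8 CPM of Rhox6 and 17.6 CPM of Rhox9, from 322 and 204 reads, whereas the other 3 pIR libraries had at most 0.603 CPM of Rhox6 and 0 CPM of Rhox9. The 4 pWT blastocysts had at most 0.347 CPM of Rhox6 and 0.738 CPM of Rhox9. Rhox6 and Rhox9 did not pass the filter on low counts in blastocysts, and with no filter the log2 fold change of pIR over pWT was 6.27 for Rhox6 (edgeR adjusted p = 0.0173) and 3.71 for Rhox9 (0.158), values that rest on that library. The same library had 12.8 CPM of Rhox5, which lies within the range of its group, and 4.84 CPM of summed germ cell markers, against 0.204 to 1.71 CPM in the other pIR and 0.579 to 5.20 CPM in the pWT blastocysts. Embryonic stem cell markers were lower in every pIR blastocyst (681 to 901 CPM) than in every pWT blastocyst (985 to 1190 CPM), and trophoblast markers overlapped (3780 to 5610 CPM in pIR and 2880 to 5440 CPM in pWT). The part of cell composition in the Rhox values was not tested.

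**Figure D3:**
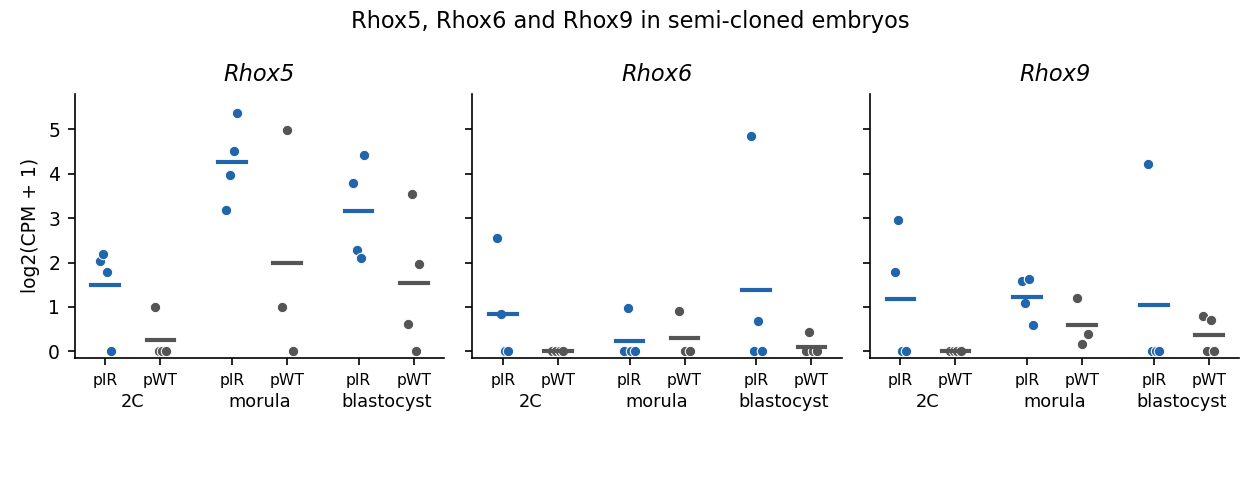
Levels of Rhox5, Rhox6 and Rhox9, drawn as log2(CPM + 1), in 2C embryos, morulae and blastocysts, with pIR to the left of pWT at each stage. Dots are libraries and bars are group means of log2(CPM + 1), not of CPM. Rhox5 reaches 40.0 CPM in a pIR morula and 30.7 CPM in a pWT morula, and 1 pIR blastocyst carries nearly all reads of Rhox6 and Rhox9 at that stage.

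Between stages, Rhox5 was called higher in pWT morulae than in 2C embryos, at 4.93 ± 1.97 on the log2 scale (edgeR adjusted p = 0.0446). That call rests on the morula at 30.7 CPM, without which the log2 fold change was 0.68 (edgeR adjusted p = 0.817), and it was also lost without each of the 3 pWT 2C libraries at 0 (edgeR adjusted p = 0.0787, 0.0808 and 0.0849). Both stages were in a joint fit of all embryo groups, whereas at 2C alone Rhox5 had too few reads to be tested. In pWT 2C embryos it had 11 reads, all in 1 library. In pIR embryos the same step gave 2.82 ± 1.72 (edgeR adjusted p = 0.177). Rhox6 and Rhox9 were not called between 2C and morula in either genotype (edgeR adjusted p = 0.0717 to 0.697), although 45.9% of all genes were called in pWT and 48.3% in pIR. From morula to blastocyst none of the 3 genes was called, with log2 fold changes for Rhox5 of -1.35 ± 1.62 in pIR and -1.88 ± 1.73 in pWT, where 5.79% and 4.51% of all genes were called. The 2C libraries come from a table of their own, so stage and table cannot be told apart in the step to morula. Among the embryo stages Rhox10, another Rhox gene, known from spermatogonia, had reads at 2C alone. Its mean there was 3.94 ± 2.25 CPM in pIR and 1.29 ± 1.36 CPM in pWT (SD, n = 4 of each), with 0 reads in morulae and blastocysts. It was called lower in morulae than in 2C embryos in pIR (edgeR adjusted p = 0.00564) and in pWT (edgeR adjusted p = 0.0234), and with 1 library left out the call held in 8 of 8 and 4 of 7 fits. Rhox10 passed the filter on low counts through its 2C reads alone, so the direction of these calls was fixed beforehand.

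In tissues near birth Rhox5 had at least 1 read in 53 of 56 libraries, with its highest levels in heart. In batch 1 at E18.5, heart had 8.90 and 13.8 CPM in pTKO, against 6.01 and 5.41 CPM in pWT. Liver had 1.56 and 3.18 CPM in pTKO, against 0.818 and 0.614 CPM in pWT, and lung had 4.01 and 0.771 CPM in pTKO, against 0.325 and 0.537 CPM in pWT. The pTKO libraries were above the pWT libraries in these 3 tissues, without overlap. With 2 libraries of each this order arises easily, and the share of all genes that show it was not counted. Kidney (0.311 and 0.121 CPM in pTKO, 0.045 and 0.342 CPM in pWT) and brain (0 and 0.0618 CPM in pTKO, 0 and 0.0792 CPM in pWT) overlapped and had too few reads to be tested.

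None of these differences passed the test. The log2 fold change of pTKO over pWT was 0.91 ± 0.30 in heart (edgeR adjusted p = 0.0826), 1.59 ± 0.54 in liver (edgeR adjusted p = 0.621) and 2.55 ± 0.90 in lung (edgeR adjusted p = 0.804). In heart 26.8% of all genes were called, while in liver and lung the share was 0%, with 642 and 488 genes at an unadjusted p under 0.05 by edgeR and 60 and 13 genes called by DESeq2. X-linked genes as a whole had median log2 fold changes of 0.47 in heart, 0.31 in liver and -0.11 in lung, and scaling to X-linked genes brought the Rhox5 value in heart down to 0.48 (edgeR adjusted p = 0.233). In lung the value was 0.88 without the pTKO library at 4.01 CPM (edgeR adjusted p = 0.537) and 3.26 without the one at 0.771 CPM (edgeR adjusted p = 0.000151, in a fit that called 47.9% of all genes). In liver it was 1.77 without the pWT library at 0.818 CPM (edgeR adjusted p = 0.0118, in a fit that called 46.4% of all genes). Each of these fits leaves 1 library in an arm, which is assumed to vary like the 2 libraries of the other arm. Liver markers were at 120000 CPM in both pTKO livers, against 125000 and 70200 CPM in pWT livers. Whether the pTKO effect differs between tissues was tested across the 5 tissues and did not pass (edgeR adjusted p = 0.555).

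**Figure D4:**
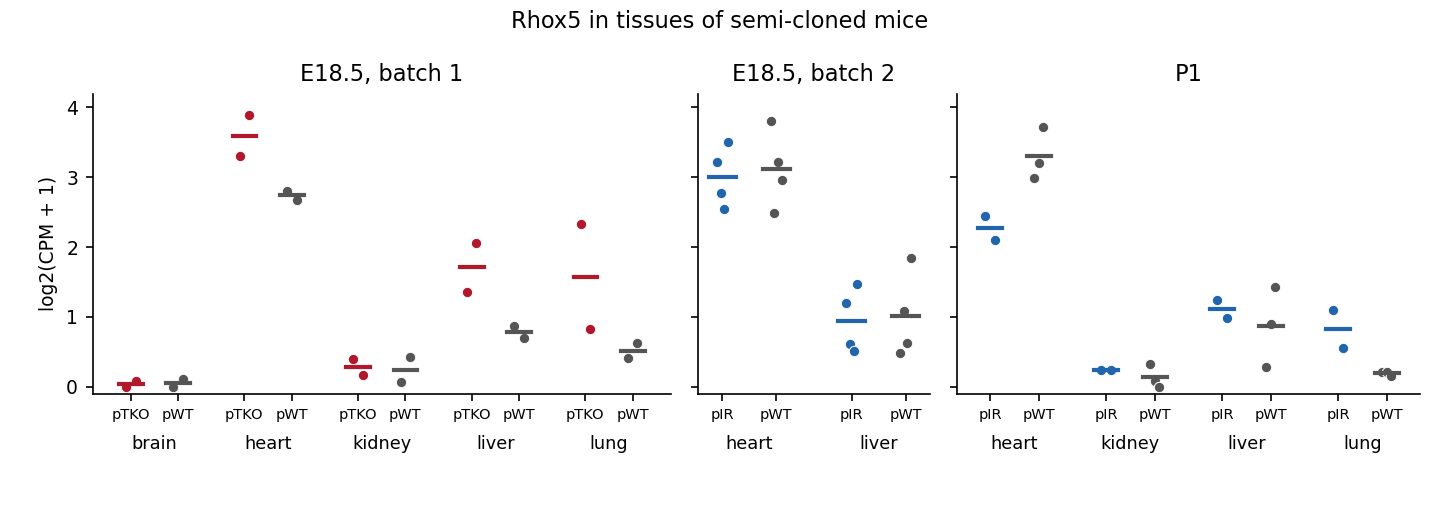
Levels of Rhox5, drawn as log2(CPM + 1), in each tissue at E18.5 (batches 1 and 2) and P1, with pTKO or pIR to the left of pWT. Dots are libraries and bars are group means of log2(CPM + 1), not of CPM. Heart is the tissue with the highest levels in each set, at 3.30 to 13.8 CPM over all heart libraries, and brain and kidney stay at or below 0.342 CPM.

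In batch 2 at E18.5 pIR and pWT overlapped widely. Heart had 8.29, 5.81, 4.85 and 10.3 CPM in pIR, against 13.0, 4.60, 8.30 and 6.77 CPM in pWT (log2 fold change -0.14 ± 0.32, edgeR adjusted p = 0.953). Liver had 1.30, 0.525, 0.423 and 1.76 CPM in pIR, against 0.398, 1.12, 0.547 and 2.58 CPM in pWT (log2 fold change -0.20 ± 0.57, edgeR adjusted p = 0.983). Few genes moved in this set at all: 0.0137% were called in heart and 0% in liver, where 813 genes had an unadjusted p under 0.05 by edgeR and 11 were called by DESeq2. The pIR effect in heart did not differ detectably from that in liver (log2 difference 0.08 ± 0.69, edgeR adjusted p = 1).

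At P1 the pIR effect on Rhox5 was called different between tissues in a joint test of all 4. In heart it had 4.44 and 3.30 CPM in pIR, against 6.90, 8.22 and 12.2 CPM in pWT, so that both pIR libraries were below all 3 pWT libraries. In lung it had 1.14 and 0.462 CPM in pIR, against 0.152, 0.153 and 0.112 CPM in pWT, the opposite order, from 24 and 9 reads in pIR and 3, 3 and 2 reads in pWT. With 2 pIR and 3 pWT libraries such an order arises easily, and the share of all genes that show it was not counted. Liver (1.37 and 0.981 CPM in pIR, 0.213, 0.855 and 1.70 CPM in pWT) and kidney (0.184 and 0.175 CPM in pIR, 0.247, 0.0585 and 0 CPM in pWT) overlapped. Lung and kidney had too few reads to be tested alone and entered the test of the 4 tissues together with heart and liver. That test took the 20 libraries as independent. The labels do not say whether tissues of the same number came from the same animal. The test of a difference between the 4 tissues gave an edgeR adjusted p of 0.0214, in a comparison that called 25.3% of all genes. It held in 17 of 20 fits with 1 library left out and was lost without pIR heart 2 (0.0789), pWT heart 3 (0.0524) or pIR lung 1 (0.0868).

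Within single P1 tissues Rhox5 was not called. The log2 fold change of pIR over pWT was -1.33 ± 0.32 in heart (edgeR adjusted p = 0.0697), where 2.32% of all genes were called, and with DESeq2 it passed at -1.33 (adjusted p = 0.0056). In liver it was 0.66 ± 0.61 (edgeR adjusted p = 0.419), where 39.2% of all genes were called. With 1 library left out the liver value ranged from 0.20, without pWT 1, to 1.47, without pWT 3 (edgeR adjusted p = 0.781 and 0.0944). In lung and kidney it had too few reads for the filter on low counts, and with no filter lung gave 2.44 ± 0.66 (edgeR adjusted p = 0.0682). Heart markers were lower in P1 hearts of pIR (35200 and 32500 CPM) than of pWT (38500, 48700 and 39800 CPM), and liver markers were higher in P1 livers of pIR (93800 and 106000 CPM) than of pWT (36900, 45900 and 37900 CPM). Heart markers in P1 lungs, which bear on heart tissue carried into a lung sample, were at 626 and 1040 CPM in pIR, against 560, 979 and 1190 CPM in pWT. The part of tissue composition in the Rhox5 values was not tested.

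**Figure D5:**
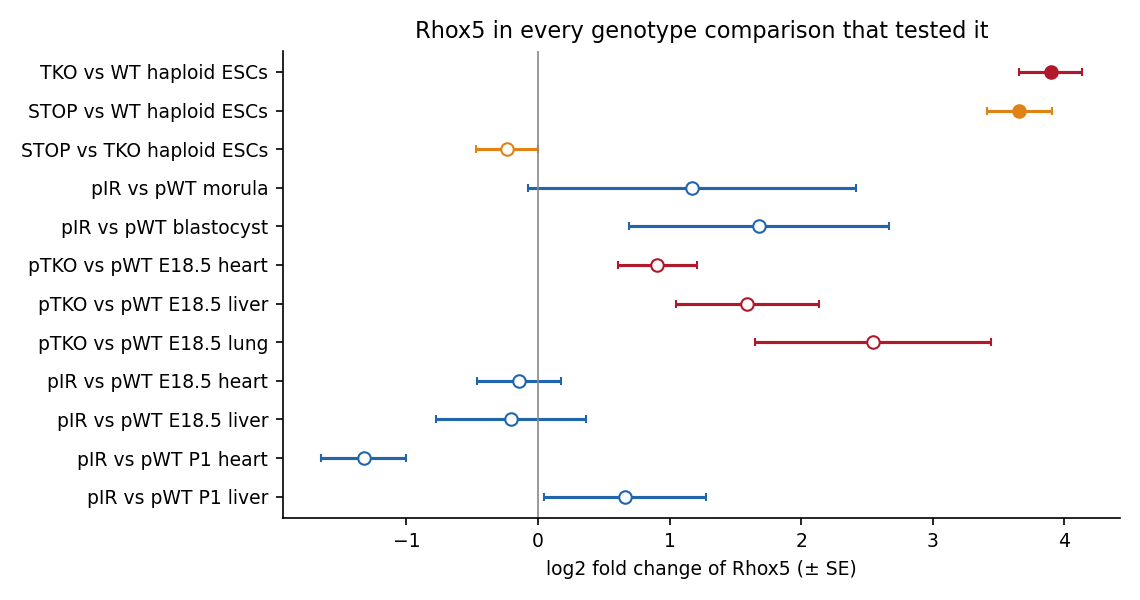
Fitted log2 fold changes of Rhox5 in every mutant against control comparison in which it was tested; bars are standard errors, filled symbols have an edgeR adjusted p below 0.05 and open symbols do not. The filled symbols are TKO and STOP over WT in haploid cells, at 3.90 and 3.66, and the other values lie between -1.33 and 2.55.

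Rhox6 and Rhox9 were near 0 in all tissues. Over 56 tissue libraries and 1090 M assigned reads, Rhox6 had 6 reads in 4 libraries and Rhox9 2 reads in 1 library, where 3 counts over the set amount to 0.00276 CPM. These values include the 10 pTKO libraries.

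Set in order of its group means, Rhox5 was highest in TKO (333 CPM) and STOP (296 CPM), whose ranges overlap each other and no other group. WT haploid cells (21.8 CPM) and pIR morulae (21.1 CPM) came next and overlapped, followed by pTKO heart at E18.5 (11.3 CPM), pWT morulae (10.6 CPM), pIR blastocysts (10.1 CPM) and the other hearts (3.87 to 9.09 CPM). The lowest mean was 0.0309 CPM in pTKO brain. In all, Rhox5 was called in 3 of the 16 comparisons in which it was tested, Rhox6 in 0 of 7 and Rhox9 in 0 of 8. The genes most like Rhox5 over the 31 group means of log2(CPM + 1), among 19971 genes, were Rhox1 (Pearson r = 0.859), Trpc5os (0.849) and 2310069B03Rik (0.842), with Rhox9 5th (0.832) and Rhox6 6th. For Rhox6 they were C330004P14Rik (0.956), Rhox1 (0.952) and Mgat4e (0.949), with Rhox9 4th (0.947), and for Rhox9 they were 1700080O16Rik (0.948), Mgat4e (0.947) and Rhox6 (0.947). These r values are descriptions over group means that share tables and libraries.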

How the data were processed

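RNA from 87 mouse libraries was sequenced, per the labels' protocols, with a poly(A) kit and a low-input kit, and the labels do not say which library used which. The submitters' processing notes name Trim Galore 0.6.6, HISAT2 2.1.0, featureCounts 1.6.4, DESeq2 and the mm10 build, and do not give the handling of strand or of multiply mapping reads. The deposited values are raw counts per gene made by the authors, in 10 tables.

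Columns were joined to samples by name, and 0 were left unused. Of the embryo columns, 11 name the stage but no sample, and they were taken as the pWT libraries of that stage because no other sample of it lacks a column. They are numbered as in the tables, and every embryo comparison rests on that match.

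Mutant and control libraries were fitted separately for each stage, tissue and batch, with the 3 haploid genotypes in 1 fit and the 6 embryo groups in 1 fit for changes between stages. Genes were kept with filterByExpr (minimum count 10), scaled by TMM and tested over all genes with the quasi-likelihood test of edgeR 4.0.16 (R 4.3.3), with Benjamini-Hochberg adjustment and a threshold of 0.05. Standard errors were derived from each log2 fold change and its F statistic. CPM use library totals and are not scaled. For no comparison was the share of all genes without overlap between groups counted. The procedure was tested on simulated data. Nothing says whether libraries of a group come from separate cultures or animals, so p values measure the spread between these libraries. The alternatives were DESeq2 1.42.0, no filter, other scalings, other sets of libraries, the replicate number as a block and each library left out.

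The genes, the lists and the tests were chosen with earlier results of these data known. Genes outside the 3 are named where they are other Rhox genes, where they are the called or the most significant members of a list, or where they are among the 3 most alike by Pearson r. Gene positions came from GENCODE M21, which held 24418 of the 25277 symbols (96.6%), and promoters from the RefSeq table of GRCm38.p6, which held 28 Rhox genes, Rhox5 among them.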

Additional observations from a re-analysis of the deposited data

Results flagged for a closer look

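In groups of 4 libraries with at least 10 reads of the gene in 1 library, 16 sets of values were checked for a library far from the other 3, and 5 had one. The nominal rate of the check is about 1 in 20 sets marked by chance, but a set with reads in only 1 library is always marked. This was so for Rhox5 in 2C pWT, Rhox9 in blastocyst pIR and Rhox6 in morula pIR. The nominal rate thus cannot tell whether more sets were marked than by chance. The blastocyst pIR library 1 was marked for Rhox6 (27.8 CPM) and for Rhox9 (17.6 CPM), so that both marks come from 1 embryo library. In 2C embryos, pIR library 1 was marked for Rhox6 (4.86 CPM), and pWT library 1 was marked for Rhox5 (1.01 CPM), the only pWT library of that stage with Rhox5 reads. In morulae, pIR library 2 was marked for Rhox6 (0.978 CPM), the only pIR morula with Rhox6 reads.

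The pIR effect on Rhox5 at P1 was marked because the joint test of the 4 tissues called a difference, with an edgeR adjusted p of 0.0214. Rhox5 was lower in both pIR hearts and higher in both pIR lungs than in all pWT libraries of the same tissue. With so few libraries this order arises easily, and the share of all genes that show it was not counted. The lung values rest on 24 and 9 reads in pIR and on 3, 3 and 2 reads in pWT.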

How the results depend on the processing

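With 1 library left out in turn, 190 of 215 values kept their direction and side of the threshold, and 7 became weaker, 5 passed and 13 changed sign. Under the other settings 129 of 149 did so, 0 became weaker, 19 passed and 1 changed sign. The causes of these changes were not tested. Rhox5 in TKO and STOP kept its call under all of them.

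In TKO Rhox6 passed with DESeq2 (1.40), no filter (1.40), X-linked scaling (1.73) and the replicate block (1.27), and Rhox9 with DESeq2 (1.40), X-linked scaling (1.73) and the replicate block (1.29). In STOP Rhox6 passed with X-linked scaling (1.52), the replicate block (1.32) and the 2 genotypes alone (0.98), and Rhox9 with DESeq2 (1.52), no filter (1.53), X-linked scaling (2.06), the replicate block (1.90) and the 2 genotypes alone (1.52). In STOP the fit of the 2 genotypes alone called 55.7% of all genes. With any WT library left out, neither gene passed in STOP (edgeR adjusted p = 0.229 to 0.325 for Rhox6 and 0.114 to 0.149 for Rhox9). The STOP over TKO value of Rhox6 turned to 0.057 under the block. The block moved Rhox5 in P1 liver to 1.52 (edgeR adjusted p = 0.0566), short of a call. Rhox5 in P1 heart passed with DESeq2 (-1.33) and no filter (-1.33). DESeq2 called Rhox6 (18.70) and Rhox9 (19.77) higher in pWT morulae than in 2C, where all 2C pWT libraries are at 0, so these sizes are no bounds. DESeq2 and no filter kept the P1 tissue difference of Rhox5 (adjusted p = 0.00192 and 0.016).

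With 1 library left out, log2 fold changes ranged from 0.80 to 1.74 for Rhox6 and 0.84 to 1.76 for Rhox9 in TKO, and for STOP over TKO from -0.76 to 0.18 and -0.23 to 0.68. Those of Rhox5 ranged from 0.99 to 1.99 in pTKO liver, 0.88 to 3.26 in pTKO lung, -0.37 to 0.18 in E18.5 pIR heart, -0.65 to 0.51 in E18.5 pIR liver, 0.58 to 1.24 in pTKO heart and -1.58 to -1.08 in P1 pIR heart. Between 2C and morula in pWT they ranged from 0.68 to 9.89 for Rhox5 and 0 to 5.36 for Rhox6, and in pIR from -1.47 to 0.49 for Rhox9. Between morula and blastocyst they ranged in pWT from -3.52 to 2.44 (Rhox5), -4.73 to 2.85 (Rhox6) and -1.63 to 0.26 (Rhox9), and in pIR from -7.13 to 1.71 (Rhox9). The adjusted p of the P1 tissue difference ranged from 0.00992 to 0.0868.

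Counts of called genes moved more. With 1 library left out they ranged from 574 to 6968 in TKO (2177 with all), 124 to 1228 in STOP (3463), 229 to 1520 in blastocysts (1282), 0 to 5266 in pTKO heart (4042), 0 to 7191 in pTKO liver and 0 to 7876 in pTKO lung (0 in each), and 5 to 1162 in P1 heart (349). Under other settings they ranged from 1291 to 3367 in TKO, 2342 to 8133 in STOP and 56 to 2629 in P1 heart.

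Same-numbered libraries did not deviate together throughout, so the numbers were not taken as pairs. The correlations were 0.007, 0.201 and 0.231 for numbers 1, 2 and 3 of TKO and WT. They were 0.109 and 0.144 for numbers 1 and 2 of STOP and WT, and 0.171 in pTKO lung. No paired analysis was possible for embryos because their pWT columns carry no sample number. In pTKO heart and liver same-numbered libraries deviated in opposite directions (correlations -0.342 and -0.213), and with crossed numbers, an alternative chosen after seeing the data, 3034 genes were called in heart (2535 with the block) and 0 in liver (0). Fits without 1 library for lists and other Rhox genes were also added then. In most comparisons outside haploid cells Rhox6 and Rhox9 had too few reads to be tested.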
